A study of Mus musculus with 6 samples.

Results

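The major urinary proteins (MUPs) are small lipocalins that hepatocytes secrete in large amounts into the blood and that pass into the urine, where they bind and slowly release volatile pheromones. In adult male mice their transcripts are among the most abundant of the liver, and their expression depends on the pulsed, male pattern of growth hormone acting through the receptor GHR and the transcription factor STAT5B. Their genes lie side by side in a cluster, with a central group of almost identical copies and a peripheral group of more diverged ones, among them *Mup20*, whose product darcin is a male sex pheromone.

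The 10 genes described here, *Mup1*, *Mup2*, *Mup3*, *Mup7*, *Mup9*, *Mup10*, *Mup11*, *Mup17*, *Mup20* and *Mup21*, were taken from a list by name, and the reads of their 30 transcripts were summed per gene. They are 10 of the 48 *Mup* genes and of the 54115 genes of the annotation with a deposited transcript (GENCODE M21, build GRCm38). Of the 48, 22 are protein-coding and 26 are pseudogenes, and 47 lie on chromosome 4 between 59956804 and 62150863. All 10 members lie there on the minus strand, and no other annotated gene overlaps them.

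RNA was taken from the livers of 3 WT and 3 *Sirt7* KO males at 24 months of age, after a fast of 16 h. The knockouts lack the deacetylase SIRT7 in the whole body, and both genotypes came from crosses of heterozygotes that had been backcrossed to C57BL/6J. Each mouse gave 1 unstranded library of 75-base single-end reads with 9994860 to 13424776 reads. Values below are CPM, the reads of a gene scaled to the reads assigned to all genes of that library, unless TPM, which is also scaled to transcript length, is named.

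*Sirt7* itself was listed at 61.8, 44.6 and 47.8 CPM in the WT and at 28.2, 39.6 and 38.7 CPM in the *Sirt7* KO mice. The ranges did not overlap, but the difference missed the threshold (log2 fold change −0.41, SE 0.18, edgeR adjusted p = 0.423), and the deleted exons are not given in the sources used here, so reads outside the deletion check nothing. The paper measured *Sirt7* separately by qRT-PCR in the liver of both genotypes, in a panel whose legend defines a mark for not detected. Among its transcripts, the one with most reads in the WT had 429.2, 381.0 and 408.4 estimated reads in the WT and 124.3, 135.3 and 77.5 in the *Sirt7* KO mice, while another had 2.1, 5.1 and 0 in the WT and 50.5, 54.1 and 93.3 in the *Sirt7* KO mice. WT replicate 1 stood apart from the other WT mice. The summed level of 23 other male-biased liver genes was 4331 CPM in it, against 9451 and 9972 CPM in WT replicates 2 and 3 and 14343 to 17126 CPM in the *Sirt7* KO mice. The tests of the members are therefore given with and without WT replicate 1. *Sirt7* KO replicate 1 also stood apart within its genotype, and was the highest mouse for 6 of the 10 members. A chi-square per tested gene was 60.1 and 48.1 between it and *Sirt7* KO replicates 2 and 3, and 16.9 between the latter. Between WT replicate 1 and WT replicates 2 and 3 the value was 65.2 and 76.5, and 26.3 between the latter. The liver identity of the samples was checked with 8 hepatocyte markers, whose summed level was 46181 to 47561 CPM in the WT and 42729 to 50194 CPM in the *Sirt7* KO mice. Of 6 salivary and lacrimal gland markers, tissues that also make MUPs, 5 had no read in any mouse, and the other, *Amy1*, is also expressed in liver.

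Because the members are near copies, their sequences decide which reads can be assigned to a single gene. The coding sequences of *Mup1*, *Mup2*, *Mup7*, *Mup9*, *Mup10*, *Mup11* and *Mup17* were 98.3 to 99.6% identical to each other. *Mup20*, *Mup3* and *Mup21* were 82.1 to 91.3% identical to these 7, and *Mup3* and *Mup21* were 94.8% identical to each other. A stretch of 75 coding bases in exon 2, as long as 1 read, shows the difference (GRCm38, minus strand, 5′ to 3′, capitals mark bases that differ from *Mup11*). It was chosen to hold the most distinct sequences, 7 among the 10 members.
Mup11, chr4:60661731-60661805: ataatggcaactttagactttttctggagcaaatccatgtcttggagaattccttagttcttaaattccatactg
Mup7, chr4:60069734-60069808: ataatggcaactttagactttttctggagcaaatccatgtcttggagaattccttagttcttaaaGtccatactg
Mup10, chr4:60581522-60581596: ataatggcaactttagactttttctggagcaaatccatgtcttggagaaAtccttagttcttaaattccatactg
Mup17, chr4:61595194-61595268: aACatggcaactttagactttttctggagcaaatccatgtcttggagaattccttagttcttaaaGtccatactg
Mup20, chr4:62053481-62053555: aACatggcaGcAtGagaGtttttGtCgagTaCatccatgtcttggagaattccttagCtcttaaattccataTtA
Mup21, chr4:62150196-62150270: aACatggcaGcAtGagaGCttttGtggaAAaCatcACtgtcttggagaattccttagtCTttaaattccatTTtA
Mup3, chr4:62086801-62086875: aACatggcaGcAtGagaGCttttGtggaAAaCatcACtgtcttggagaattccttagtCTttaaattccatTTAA
*Mup1*, *Mup2* and *Mup9* are identical to *Mup11* in this stretch, so a read from it fits all 4. *Mup7* and *Mup10* differ from *Mup11* by 1 base each and *Mup17* by 3, while *Mup20* differs by 13, *Mup21* by 18 and *Mup3* by 19.

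Over the whole transcripts, *Mup3* and *Mup21* could be told apart from every other gene in most places, and the 7 near-identical members could not. Of the 75-base words of *Mup3*, 94.6% occurred in no other gene, and of those of *Mup21* 89.7%. For *Mup20* the share was 56.4%, and the words it shared were shared with pseudogenes. Among the 7 near-identical members it was 18.9% for *Mup7*, 22.2% for *Mup2*, 24.9% for *Mup9*, 25.7% for *Mup10*, 26.3% for *Mup11*, 31.3% for *Mup17* and 42.2% for *Mup1*. Their words were also held by coding *Mup* genes outside the list. Of those, *Mup22*, *Mup15* and *Mup19* had no 75-base word of their own, so every read on them was assigned by Salmon's estimate. None of the members' estimated counts above 0 lay within 1e-06 of a whole number, against 17.4% of those of all transcripts. Sums over near-identical copies are therefore firmer than the values of single copies.

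**Figure D1:**
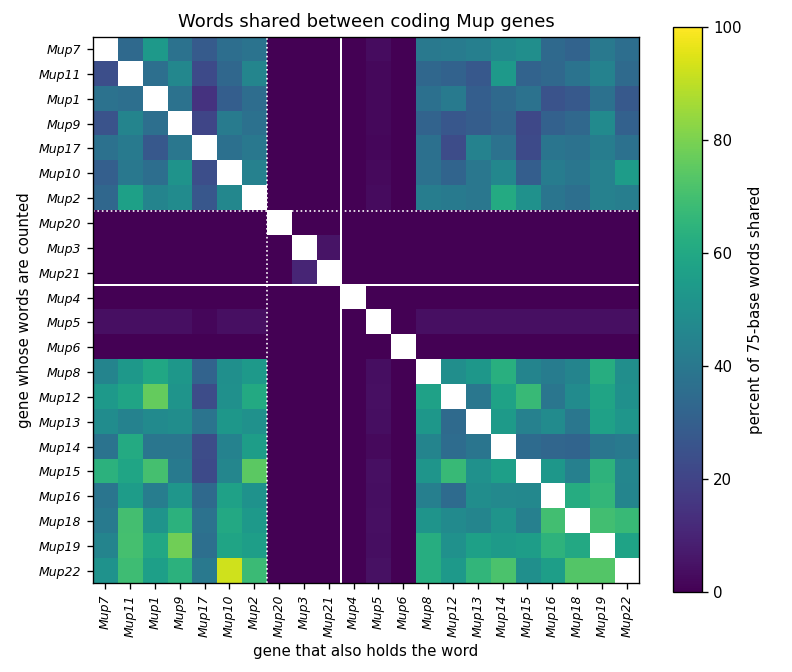
Share of the 75-base words of each of the 22 coding *Mup* genes (rows, percent) that also occurs in each other coding *Mup* gene (columns); the dotted line closes the 7 near-identical members and the solid line the 10 members. *Mup20*, *Mup3* and *Mup21* share almost nothing with the central copies, whereas 92.6% of the words of *Mup22* occur in *Mup10*.

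The regions in front of the genes were also alike. RefSeq promoters (GRCm38.p6, 250 bases before to 50 after the start) were at hand for 8 of the 10 members. A 110-base block upstream of the start is shown for 4 of them, a pair of near-identical members and the more diverged *Mup21* and *Mup3*. Capitals mark the word ATCAATA, which matches the core bound by ONECUT factors such as HNF6.
Mup11, chr4:60662476-60662585: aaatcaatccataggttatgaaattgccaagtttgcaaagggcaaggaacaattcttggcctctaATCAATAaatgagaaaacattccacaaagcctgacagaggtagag
Mup10, chr4:60582265-60582374: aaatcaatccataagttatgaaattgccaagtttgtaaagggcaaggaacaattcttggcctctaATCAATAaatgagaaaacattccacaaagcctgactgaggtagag
Mup21, chr4:62150890-62150999: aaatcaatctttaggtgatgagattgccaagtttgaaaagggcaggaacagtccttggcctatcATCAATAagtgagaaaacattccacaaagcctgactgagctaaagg
Mup3, chr4:62087372-62087481: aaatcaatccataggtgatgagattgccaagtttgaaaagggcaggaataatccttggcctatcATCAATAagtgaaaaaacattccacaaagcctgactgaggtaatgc
The blocks of *Mup9* and *Mup17* are identical to that of *Mup11*, and the blocks of *Mup3* and *Mup21* match that of *Mup11* at 87.4% and 86.5% of the aligned positions. ATCAATA was found, on either strand, in 8 of 8 member promoters and in 2.05% of 32851 RefSeq promoters of the same length. The TATA word TATATAA was in 7 of 8 and in 3.24% of all. The STAT5 word TTCNNNGAA was in 0 of 8 and in 8.3% of all, and the C/EBP word TTGCGCAA in 0 of 8 and in 0.183%. The words were chosen after the sequences were seen, the 8 promoters are copies of each other, the TATA word lies outside the blocks shown, and a match or its absence in this window is a description only.

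The summed level of the 10 members was 5399.5, 28958 and 40618 CPM in WT replicates 1, 2 and 3, and 61074, 39188 and 51802 CPM in *Sirt7* KO replicates 1, 2 and 3. Members thus took 0.540 to 4.06% of all reads on genes in the WT and 3.92 to 6.11% in the *Sirt7* KO mice. The ranges overlapped, since *Sirt7* KO replicate 2 lay below WT replicate 3, and WT replicate 1 was 7.52-fold below WT replicate 3. The mean was 24992 ± 17941 CPM (SD, n = 3) in the WT and 50688 ± 10986 CPM (SD, n = 3) in the *Sirt7* KO mice. The means differed by more than either SD, but the difference missed the threshold. edgeR gave a log2 fold change of 1.08 (SE 0.60, unadjusted p = 0.103, adjusted p = 0.551), and an exact two-sided permutation test gave p = 0.2, where 3 mice against 3 cannot go below 0.1. Leaving out WT replicate 1 gave a log2 fold change of 0.59 (SE 0.24, edgeR unadjusted p = 0.0425, adjusted p = 0.527). In bulk liver, fewer expressing cells and less RNA per cell cannot be told apart.

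The 2 kinds of member were also summed apart. The 7 near-identical members together were at 978.6, 18478 and 25476 CPM in the WT and at 40645, 31519 and 41227 CPM in the *Sirt7* KO mice. Every *Sirt7* KO mouse lay above every WT mouse, with a log2 fold change of 1.39 (SE 0.84, edgeR adjusted p = 0.587) and of 0.83 (SE 0.22, unadjusted p = 0.00577, adjusted p = 0.293) without WT replicate 1. *Mup20*, *Mup3* and *Mup21* together were at 4421, 10481 and 15142 CPM in the WT and at 20429, 7669 and 10575 CPM in the *Sirt7* KO mice. These ranges overlapped widely, with a log2 fold change of 0.43 (SE 0.48, edgeR adjusted p = 0.790) and of 0.05 (SE 0.38, adjusted p = 0.990) without WT replicate 1. Neither sum passed the threshold. Each sum was set in place of its genes in the table of all genes, and these groupings were chosen after the data were seen.

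All 10 members were tested and edgeR called none of them (adjusted p under 0.05 and fold change over 1.5), as against 1 of 12524 genes, or 0.00798%. DESeq2 also called none, with 2.16% of all genes called, and with length offsets it called 1, *Mup21*, with 1.87%. With no filter on low counts edgeR called 6 members and 2.27% of all genes, with an SE for the sum of 0.23 instead of 0.60. At an unadjusted p under 0.05 and the same fold, 2 members were higher in the *Sirt7* KO mice and none lower, where 4.42% of all genes were higher and 2.96% lower. When WT replicate 1 was left out, 5 members were higher and none lower at this level, with 4.24% of all genes higher and 2.64% lower. The median log2 fold change of the members was 1.23, and 0.73 without WT replicate 1, against −0.0061 and −0.00047 for all tested genes. In 5 members, every *Sirt7* KO mouse lay above every WT mouse and in none below, which held for 5.7% and 12.7% of all genes. The same 5 were above WT replicates 2 and 3, as were 11.1% of all genes. All 10 members were lowest in WT replicate 1, which held for 9.75% of all genes. Members that share reads are not independent of each other, so these counts are a description.

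**Figure D2:**
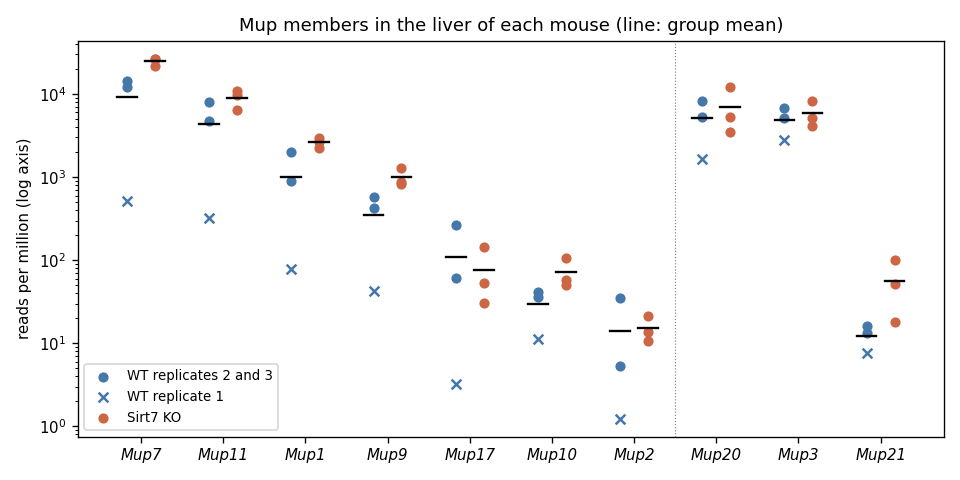
CPM of each member (log axis) in each mouse, with WT replicate 1 as a cross and black lines for group means; the dotted line separates the 7 near-identical members from *Mup20*, *Mup3* and *Mup21*. All 10 crosses lie lowest, and for *Mup7*, *Mup1*, *Mup9*, *Mup10* and *Mup21* the 3 *Sirt7* KO points lie above all WT points.

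*Mup7* was the most abundant member. It was at 515.8, 12306 and 14525 CPM in the WT and at 26694, 21959 and 26266 CPM in the *Sirt7* KO mice. The lowest *Sirt7* KO mouse was thus well above the highest WT mouse, and the *Sirt7* KO values lay close to each other (SD 2619 CPM around a mean of 24973 CPM). The log2 fold change was 1.51 (SE 0.87, edgeR adjusted p = 0.566), and the SE dropped to 0.19 without WT replicate 1, where the log2 fold change was 0.94 (unadjusted p = 0.00117, adjusted p = 0.190).

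*Mup11*, a close copy, did not separate the genotypes. Its CPM was 325.4, 4711 and 8073 in the WT and 9852, 6337 and 10933 in the *Sirt7* KO mice, so that *Sirt7* KO replicate 2 lay below WT replicate 3. The log2 fold change was 1.11 (SE 0.83, edgeR adjusted p = 0.671) and 0.55 (SE 0.30, adjusted p = 0.660) without WT replicate 1.

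*Mup1* and *Mup9* followed *Mup7* at lower levels. *Mup1* was at 78.8, 907.5 and 1997 CPM in the WT and at 2966, 2270.2 and 2626 CPM in the *Sirt7* KO mice, and *Mup9* was at 43.0, 420.7 and 571.1 CPM in the WT and at 871.6, 827.2 and 1300.0 CPM in the *Sirt7* KO mice. For both genes the ranges did not overlap. The log2 fold change was 1.46 (SE 0.82, edgeR adjusted p = 0.559) for *Mup1* and 1.60 (SE 0.72, adjusted p = 0.450) for *Mup9*. With that mouse left out the values were 0.90 (SE 0.31, adjusted p = 0.414) and 1.06 (SE 0.25, adjusted p = 0.236).

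*Mup10*, *Mup17* and *Mup2* were the least abundant of the near-identical members. *Mup10* was at 11.2, 35.7 and 41.5 CPM in the WT and at 107.3, 50.7 and 58.3 CPM in the *Sirt7* KO mice, with no overlap and a log2 fold change of 1.35 (SE 0.47, edgeR unadjusted p = 0.0178, adjusted p = 0.326). Without *Sirt7* KO replicate 1 the log2 fold change of *Mup10* was 0.98 (SE 0.46, edgeR adjusted p = 0.329). *Mup17* was at 3.19, 61.5 and 262.7 CPM in the WT and at 143.6, 53.0 and 30.5 CPM in the *Sirt7* KO mice, and WT replicate 3 was its highest mouse. The edgeR log2 fold change was −0.48 (SE 1.08, adjusted p = 0.911) and turned to 1.25 without WT replicate 3. *Mup2* was at 1.24, 35.5 and 5.39 CPM in the WT and at 10.7, 21.5 and 13.7 CPM in the *Sirt7* KO mice, so that the WT values enclosed all 3 *Sirt7* KO values. The log2 fold change was 0.18 (SE 0.89, edgeR adjusted p = 0.961) and turned to −0.38 without WT replicate 1. *Mup17* and *Mup2* rested on 34 and 13 estimated reads in WT replicate 1, and how Salmon split reads between near-identical copies was not tested.

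*Mup20*, which encodes darcin, overlapped between genotypes. Its CPM was 1654, 5331 and 8301 in the WT and 12136, 3495 and 5312 in the *Sirt7* KO mice. *Sirt7* KO replicate 1 was far above the other 5 mice, and *Sirt7* KO replicates 2 and 3 lay below WT replicate 2. The log2 fold change was 0.51 (SE 0.59, edgeR adjusted p = 0.797), 0.07 (SE 0.46, adjusted p = 0.986) without WT replicate 1, and −0.12 without *Sirt7* KO replicate 1.

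*Mup3*, the member with the most words of its own, had the smallest ratio of highest to lowest mouse. It was at 2759, 5134 and 6828 CPM in the WT and at 8193, 4156 and 5211 CPM in the *Sirt7* KO mice. edgeR gave a log2 fold change of 0.33 (SE 0.37, adjusted p = 0.790) and of 0.01 (SE 0.28, adjusted p = 0.998) without WT replicate 1. Without *Sirt7* KO replicate 1 the log2 fold change of *Mup3* was 0.04 (SE 0.36, edgeR adjusted p = 0.972). Its estimates in WT replicates 2 and 3 enclosed that of *Sirt7* KO replicate 3.

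*Mup21*, the closest relative of *Mup3*, had the largest log2 fold change of the 10 members in edgeR with all mice. It was at 7.71, 15.9 and 13.4 CPM in the WT and at 99.9, 18.1 and 51.6 CPM in the *Sirt7* KO mice. All *Sirt7* KO mice lay above the WT mice, but *Sirt7* KO replicate 2 only just. The log2 fold change was 2.27 (SE 0.54, edgeR unadjusted p = 0.00238, adjusted p = 0.175) and 1.98 (SE 0.59, adjusted p = 0.340) without WT replicate 1. Without *Sirt7* KO replicate 1 the log2 fold change of *Mup21* was 1.60 (SE 0.45, edgeR adjusted p = 0.120). DESeq2 with offsets for average transcript length called it (adjusted p = 0.000357), and without these offsets did not (adjusted p = 0.0713). The log2 fold changes were alike, 2.28 (SE 0.47) with and 2.26 (SE 0.72) without offsets. *Mup21* has only 1 listed transcript, and why the SE differed was not tested.

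**Figure D3:**
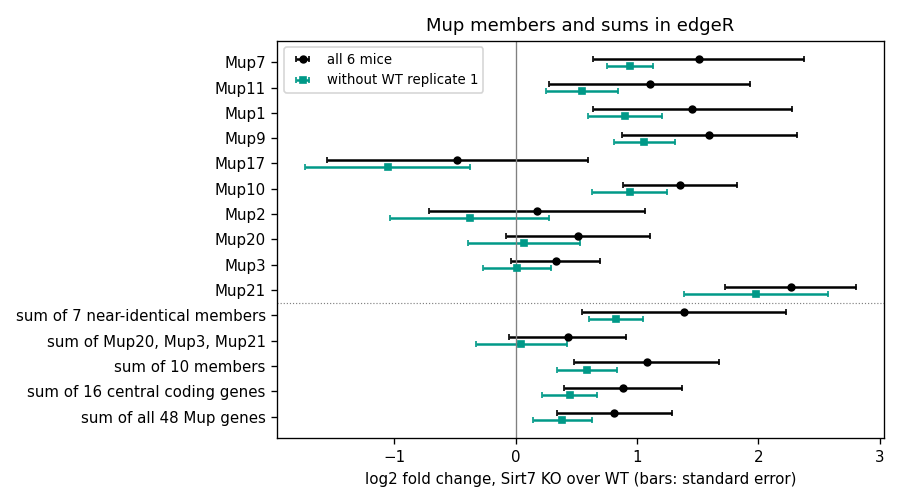
Log2 fold change of *Sirt7* KO over WT mice with its standard error, from edgeR with all 6 mice (circles) and without WT replicate 1 (squares), for the members and for 5 sums. Without WT replicate 1, *Mup7*, *Mup1*, *Mup9* and *Mup10* lie at 0.90 to 1.06, the near-identical *Mup11*, *Mup2* and *Mup17* at 0.55, −0.38 and −1.05, and *Mup20* and *Mup3* lie at 0.07 and 0.01.

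Per transcript length, *Mup7* stood first, with a mean of 21002 TPM over the 6 mice, and exceeded *Mup11* (8400.3 TPM) in all 6. In WT replicate 1, however, *Mup7* was at 633.8 TPM, below *Mup3* (3256 TPM) and *Mup20* (1959 TPM). *Mup11*, *Mup20* (7297 TPM) and *Mup3* (6520 TPM) kept no common order. *Mup20* exceeded *Mup11* in all 3 WT mice, and *Mup11* exceeded *Mup20* in *Sirt7* KO replicates 2 and 3. *Mup20* exceeded *Mup3* in 4 of 6 mice. *Mup3* exceeded *Mup1* (2523 TPM), and *Mup1* exceeded *Mup9* (1474 TPM), in all 6. *Mup17* (111.5 TPM), *Mup10* (72.7 TPM) and *Mup21* (66.2 TPM) differed by less than their spread, and *Mup2* was lowest at 22.4 TPM.

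The make-up of the sum differed between mice as well as its size. The 7 near-identical members made up 18.1, 63.8 and 62.7% of the members' reads in the WT and 66.5, 80.4 and 79.6% in the *Sirt7* KO mice. These *Sirt7* KO shares all lay above the WT shares, also above those of WT replicates 2 and 3 (exact two-sided permutation p = 0.1, the smallest possible). *Mup7* alone made up 9.55, 42.5 and 35.8% in the WT and 43.7, 56.0 and 50.7% in the *Sirt7* KO mice, again without overlap (exact permutation p = 0.1). *Mup3* was the mirror image, with 51.1, 17.7 and 16.8% in the WT and 13.4, 10.6 and 10.1% in the *Sirt7* KO mice (exact permutation p = 0.1). *Mup20* made up 30.6, 18.4 and 20.4% in the WT and 19.9, 8.92 and 10.2% in the *Sirt7* KO mice, and its ranges overlapped (exact permutation p = 0.2). Shares of 1 total are tied to each other, and 10 members were compared in this way.

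**Figure D4:**
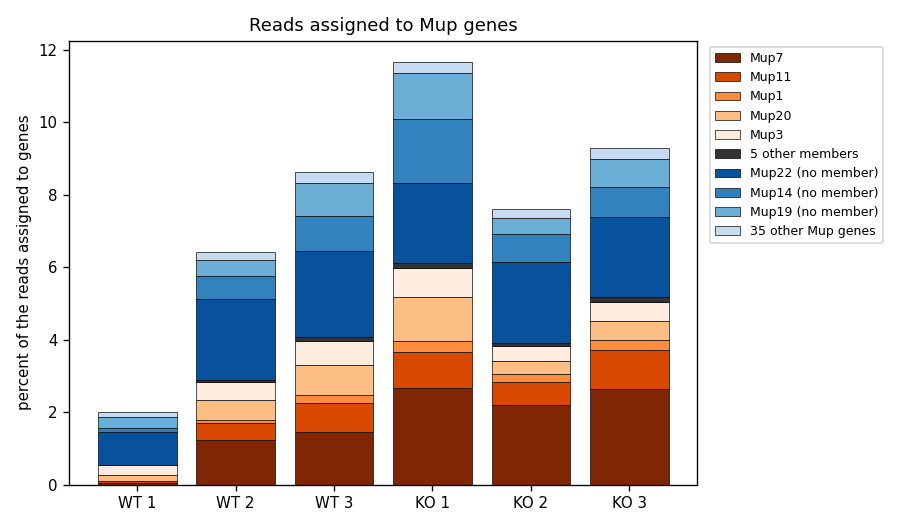
Percent of the reads assigned to genes that fell on *Mup* genes in each mouse, stacked by gene; members are in orange and black and other *Mup* genes in blue. All *Mup* genes take 2.01% in WT replicate 1 and 6.41 to 11.7% in the other 5 mice, and the band of *Mup22* is alike in those 5.

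The *Mup* genes outside the list also held many reads. Together the 38 genes were at 14747, 35114 and 45627 CPM in the WT and at 55642, 36911 and 41066 CPM in the *Sirt7* KO mice. All 48 *Mup* genes took 2.01, 6.41 and 8.62% of the reads on genes in the WT and 11.7, 7.61 and 9.29% in the *Sirt7* KO mice. For their sum the log2 fold change was 0.81 (SE 0.47, edgeR adjusted p = 0.570) and 0.39 (SE 0.24, adjusted p = 0.717) without WT replicate 1. The members made up 26.8, 45.2 and 47.1% of all *Mup* reads in the WT and 52.3, 51.5 and 55.8% in the *Sirt7* KO mice, without overlap (exact permutation p = 0.1).

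*Mup22*, *Mup14* and *Mup19* were the most abundant of these genes. *Mup22* was at 9097, 22127 and 23846 CPM in the WT and at 22235, 22357 and 22176 CPM in the *Sirt7* KO mice. Apart from WT replicate 1 its estimates were nearly level, with a log2 fold change of 0.36 (SE 0.36, edgeR adjusted p = 0.765) and of −0.00087 (SE 0.17, adjusted p = 0.999) without that mouse. *Mup14* was at 1054 to 9795 CPM in the WT and at 7577 to 17496 CPM in the *Sirt7* KO mice, and *Mup19* at 3186 to 8981 and 4359 to 12795 CPM, with log2 fold changes of 0.99 (SE 0.68, edgeR adjusted p = 0.635) and 0.66 (SE 0.46, adjusted p = 0.642). *Mup18* was highest in WT replicate 1, with 934.1 CPM there and 172.0 to 574.7 CPM in the other mice.

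Of the 38 genes 14 were tested, 10 coding and 4 pseudogenes. edgeR called none of them and DESeq2 called 1, *Mup16*, against 2.16% of all genes. At an unadjusted p under 0.05 and a fold change over 1.5, 4 were higher and none lower, against 4.42 and 2.96% of all genes. The 4 were *Mup8*, *Mup13*, *Mup16* and *Mup-ps8*. *Mup16* was the only abundant one of these, at 448.3, 991.9 and 996.4 CPM in the WT and 1379, 1534 and 1658 CPM in the *Sirt7* KO mice (log2 fold change 0.99, SE 0.32, edgeR adjusted p = 0.287, DESeq2 adjusted p = 0.0206). *Mup8* had 0, 0 and 12 estimated reads in the WT and 35, 42 and 32 in the *Sirt7* KO mice. Over the 14 genes the median log2 fold change was 0.80, and 0.42 without WT replicate 1. Without that mouse 4 were higher at the unadjusted threshold and 1 lower, against 4.24 and 2.64% of all genes. The lower one was *Mup15*, at 0.611, 287.1 and 795.7 CPM in the WT and 307.2, 109.5 and 97.5 CPM in the *Sirt7* KO mice, with log2 fold changes of −1.03 (SE 1.33, edgeR adjusted p = 0.823) with and −1.62 (SE 0.54, adjusted p = 0.398) without it. Since reads can be split between members and other copies, the 16 coding genes with at least 95% identity to a near-identical member were summed as well. That sum was at 15722, 53581 and 71089 CPM in the WT and at 96270.2, 68416 and 82279 CPM in the *Sirt7* KO mice, where *Sirt7* KO replicate 2 lay below WT replicate 3. Its log2 fold change was 0.88 (SE 0.49, edgeR adjusted p = 0.548) and 0.45 (SE 0.23, adjusted p = 0.630) without WT replicate 1, less than that of the 7 members within it. The 7 members made up 6.23, 34.5 and 35.8% of this sum in the WT and 42.2, 46.1 and 50.1% in the *Sirt7* KO mice (exact permutation p = 0.1).

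A list of 28 genes held regulators of the *Mup* genes and genes that answer to growth hormone, and edgeR tested 27 of them. edgeR called none and DESeq2 called 2, *Bcl6* and *Socs2*, against 2.16% of all genes. At an unadjusted p under 0.05 and a fold change over 1.5, 2 were higher and 6 lower, with a median log2 fold change of −0.08. Of all genes, 4.42% were higher and 2.96% lower at this level. Without WT replicate 1, 2 were higher and 4 lower, against 4.24 and 2.64% of all genes. The 2 higher ones were *Bcl6*, which encodes a repressor of female-biased liver genes, and *Nr0b2*, a nuclear corepressor. *Bcl6* was at 6.63, 9.70 and 3.21 CPM in the WT and at 33.5, 12.96 and 20.5 CPM in the *Sirt7* KO mice, without overlap (log2 fold change 1.88, SE 0.43, edgeR adjusted p = 0.166). *Ghr*, the growth hormone receptor, was at 294.9 to 329.4 CPM in the WT and 334.2 to 391.8 CPM in the *Sirt7* KO mice (log2 fold change 0.37, SE 0.15, edgeR adjusted p = 0.398). *Stat5b* was at 48.2 to 67.9 and 47.7 to 71.5 CPM (log2 fold change 0.23, SE 0.19, edgeR adjusted p = 0.695). *Zhx2* was at 6.28 to 7.58 and 4.79 to 9.44 CPM (log2 fold change 0.10, SE 0.30, edgeR adjusted p = 0.939).

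The 6 lower ones were *Socs2*, *Cebpb*, *Trim24*, *Cish*, *Onecut1* and *Tox*. *Onecut1*, which encodes the ONECUT factor HNF6, was at 6.63, 5.07 and 8.38 CPM in the WT and at 4.24, 3.11 and 3.30 CPM in the *Sirt7* KO mice, without overlap (log2 fold change −0.81, SE 0.29, edgeR unadjusted p = 0.0225, adjusted p = 0.346). *Tox* had a log2 fold change of −1.55 (edgeR adjusted p = 0.216), *Trim24*, a nuclear receptor cofactor, one of −0.72 (adjusted p = 0.270), and *Cish*, a feedback inhibitor of cytokine receptors, one of −0.88 (adjusted p = 0.419), and for these 3 the ranges did not overlap either. *Cebpb*, a C/EBP factor, had overlapping ranges and a log2 fold change of −1.60 (edgeR adjusted p = 0.356). *Socs2*, a feedback inhibitor that STAT5 induces, had a log2 fold change of −1.45 (edgeR adjusted p = 0.140, DESeq2 adjusted p = 0.000278), and was named after its values were seen. *Igf1*, the main hormone the liver makes in answer to growth hormone, was at 444.8 to 502.9 CPM in the WT and 409.6 to 450.0 CPM in the *Sirt7* KO mice. *Igfals*, its carrier in blood, had a log2 fold change of 0.13 (SE 0.18, edgeR adjusted p = 0.840), and *Hnf4a*, a factor of hepatocyte identity, one of −0.44 (SE 0.20, adjusted p = 0.465). *Cux2*, a female-biased factor, was at 7.86 CPM in WT replicate 1 and at 0 to 1.12 CPM in the other mice, and did not pass edgeR's filter on low counts (DESeq2 log2 fold change −2.85, SE 2.33, adjusted p = 0.806).

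Other genes that are higher in male than in female liver were counted in the same way. Of 23 such genes 22 were tested, edgeR called none and DESeq2 called 13, against 2.16% of all genes. At an unadjusted p under 0.05 and a fold change over 1.5, 17 were higher and none lower, against 4.42 and 2.96% of all genes, and their median log2 fold change was 1.09. This list and the others were chosen with earlier results of these data known, so such counts are a description only. Of 23 tested without WT replicate 1, 18 were higher, against 4.24% of all genes, with a median of 0.88. *Serpina1e*, a protease inhibitor, was at 220.2, 1871 and 2405 CPM in the WT and at 5283, 5821 and 6047 CPM in the *Sirt7* KO mice (log2 fold change 1.99, SE 0.68, edgeR adjusted p = 0.323). *Cyp4a12a*, a fatty acid hydroxylase, had a log2 fold change of 1.30 (SE 0.42, edgeR adjusted p = 0.290) and *Gstp1*, a glutathione transferase, one of 0.61 (SE 0.29, adjusted p = 0.481). *Cyp2d9*, a steroid hydroxylase, did not follow, with 1144 to 2505 CPM in the WT and 1536 to 2250.1 CPM in the *Sirt7* KO mice.

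Of 32 female-biased genes 19 were tested and edgeR called none, while DESeq2 called 3, against 2.16% of all genes. At the unadjusted threshold 9 were lower and 2 higher, *Ntrk2* and *Atp6v0d2*, with a median log2 fold change of −1.10. Of all genes, 2.96% were lower and 4.42% higher at this level. Leaving out WT replicate 1 left 5 lower and 2 higher, against 2.64 and 4.24% of all genes. *Tox* and *Cux2* are also on the list of regulators, and *Tox* is counted as lower in both lists. *Cyp4a10*, a fatty acid hydroxylase, was at 3066 to 3792 CPM in the WT and at 406.5 to 1749 CPM in the *Sirt7* KO mice (log2 fold change −1.81, SE 0.47, edgeR adjusted p = 0.202). *Acot3*, a peroxisomal thioesterase, had a log2 fold change of −2.97 (SE 0.69, edgeR adjusted p = 0.168), *Cd36*, a fatty acid carrier, one of −0.81 (SE 0.41, adjusted p = 0.503), and *Fmo1*, a flavin monooxygenase, one of −0.29 (SE 0.15, adjusted p = 0.520).

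Other secreted proteins of the same cells had smaller medians. Of 16 further lipocalins 10 were tested, with a median log2 fold change of 0.51. At the unadjusted threshold 3 were higher, all of them orosomucoids (*Orm1*, *Orm2* and *Orm3*), the acute-phase carriers of the family, and none lower. Of all genes, 4.42% were higher and 2.96% lower. DESeq2 called the same 3, against 2.16% of all genes. Without WT replicate 1, 5 were higher in edgeR, the orosomucoids, *Apom* and *Lcn2*, against 4.24% of all genes. *Lcn2* was highest in WT replicate 1 and went from a log2 fold change of 0.57 (SE 0.71, edgeR adjusted p = 0.816) to 2.19 (SE 0.33, adjusted p = 0.103). *Orm1* was at 499.4 to 807.0 CPM in the WT and at 987.1 to 1030.3 CPM in the *Sirt7* KO mice (log2 fold change 0.84, SE 0.17, edgeR adjusted p = 0.152). The retinol carrier *Rbp4* had a log2 fold change of −0.22 (SE 0.17, edgeR adjusted p = 0.672), *Ambp* one of 0.22 (SE 0.16, adjusted p = 0.654) and the complement subunit *C8g* one of 0.18 (SE 0.16, adjusted p = 0.724). Of 26 abundant secreted liver proteins 3 were higher, *Serpina3k*, *Fga* and *Fgg*, and none lower, with a median of 0.16. *Rbp4* and *Ambp* are on this list as well as on that of the lipocalins. The shares of all genes were again 4.42 and 2.96%. *Alb* (log2 fold change −0.07, SE 0.20), *Apoe* (−0.15, SE 0.20), *Trf* (0.23, SE 0.20) and *Apoa1* (0.39, SE 0.18) had edgeR adjusted p-values of 0.460 to 0.943. WT replicate 1, the lowest mouse for all members, was the highest for the sum of these 26 genes, at 227226 CPM against 198101 to 216170.1 CPM. edgeR called no gene of either list.

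**Figure D5:**
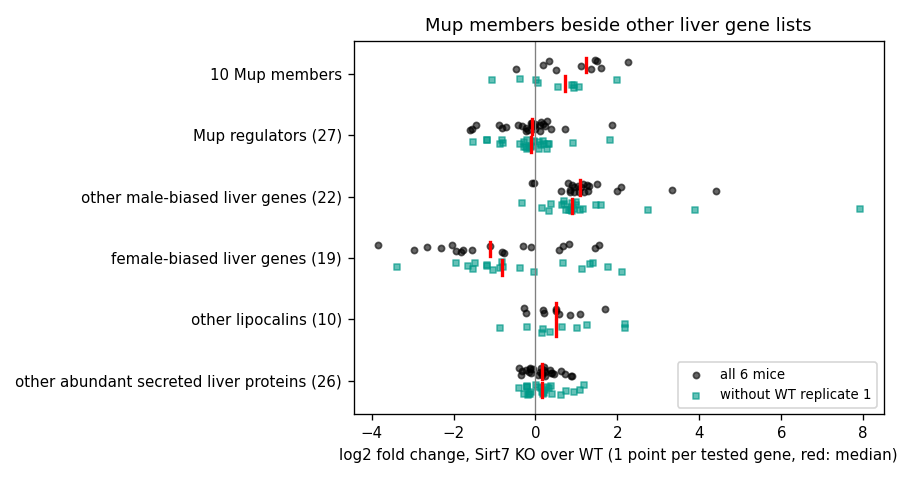
Log2 fold change of *Sirt7* KO over WT for each tested gene, from edgeR with all 6 mice (circles) and without WT replicate 1 (squares), with red lines at the medians, for the 10 members and 5 lists (genes tested in brackets). The medians are 1.23 for the members, 1.09 for male-biased, −1.10 for female-biased, 0.51 for lipocalins and 0.16 for abundant secreted proteins with all mice.

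Markers of other liver cell types overlapped between the genotypes in their summed levels. The summed level of 10 Kupffer cell markers was 97.5 to 238.3 CPM in the WT and 85.9 to 237.5 CPM in the *Sirt7* KO mice, that of 8 sinusoidal endothelial markers 85.9 to 115.3 and 87.6 to 123.2 CPM, and that of 9 stellate cell markers 268.5 to 348.7 and 200.2 to 328.4 CPM. Sums of 10 lymphocyte, 5 neutrophil and 4 adipocyte markers stayed at or below 14.8 CPM in every mouse, and 6 cholangiocyte markers at 47.8 to 75.03 CPM. The 5 erythroid markers were at 378.0 to 611.4 CPM in the WT and at 422.6 to 869.9 CPM in the *Sirt7* KO mice, and their part in the result was not tested.

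The 5 genes outside the cluster's *Mup* names whose log2(CPM + 0.5) was most like that of the members' sum over the 6 mice, among 6657 genes compared, were *Kmo*, *Zdhhc9*, *Gm13775*, *4931406C07Rik* and *Serpina1e*. Pearson's r was 0.987, 0.975, 0.974, 0.967 and 0.966, and Spearman's rho was 0.829, 1, 0.943, 0.657 and 0.714. Without WT replicate 1 and *Sirt7* KO replicate 1, the 2 mice farthest from the median, r was 0.683, 0.866, 0.910, 0.452 and 0.761, so the likeness of *4931406C07Rik* and *Kmo* rested mostly on those mice. *Kmo*, an enzyme of tryptophan breakdown, was at 163.6, 268.9 and 275.3 CPM in the WT and at 317.5, 303.0 and 297.7 CPM in the *Sirt7* KO mice, a far smaller range than that of the members. *Gm13775* lies within the *Mup* cluster (GRCm38, chr4:61783123-61801286) on the other strand, and shares 31-base words with each of the 10 members but no 75-base word. It spans the pseudogene *Mup-ps16*, which lies on the same strand as *Gm13775*, and shares 75-base words with this and other *Mup* pseudogenes.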

How the data were processed

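RNA-seq of 6 livers (3 WT, 3 *Sirt7* KO) was analyzed, and the genotype and replicate number of each mouse were taken from the sample labels. RNA was amplified with SMART-seq HT from 1 ng and sequenced as 75-base single reads without strand. Reads were trimmed by the authors (Trim Galore 0.6.5), and transcripts of GRCm38 were quantified with Salmon 1.2.1. They deposited, per transcript and mouse, an estimated count, which is not normalized, and TPM, which the authors' Salmon run scaled to length. The annotation release is not given in the sources used here. With GENCODE M21, 139172 of 140992 transcripts matched with the same version and 619 with another, and 1201 were left out.

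Counts were summed per gene, rounded, and tested with edgeR 4.0.16 (quasi-likelihood, TMM, filterByExpr with a minimum count of 10), adjusting by Benjamini-Hochberg over all 12524 genes. The SE is the log2 fold change divided by the root of the F statistic. A call needed an adjusted p under 0.05, which the paper's results name, and a fold change over 1.5, which its methods name. The paper itself used DESeq2. DESeq2 1.42.0, with and without average length offsets, was an alternative, as were other normalizations, filters, a replicate block and leaving out each mouse. For sums, the genes were replaced by 1 row. Exact permutation tests used log2(CPM + 0.5) or percent shares, two-sided. Words of 75 bases were counted in GENCODE transcripts, and promoters came from RefSeq (GRCm38.p6). The fits were also run on counts simulated gene by gene with edgeR's estimates of spread. That simulation held no outlying mouse and no reads shared between copies, so it does not bear on either.

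The members and lists were chosen with earlier results of these data known. Named genes are the members, the other *Mup* genes, *Sirt7*, the 4 most abundant tested genes of each list, *Ghr*, *Stat5b*, *Cux2*, *Bcl6*, *Zhx2*, and the 5 genes most like the members' sum; genes named beyond these were chosen after their values were seen. Replicates are separate mice with 1 library each. Depth was 9994860 to 13424776 reads per mouse, and reads carry no molecular identifiers.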

Additional observations from a re-analysis of the deposited data

How the results depend on the processing

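The summed log2 fold change of the 10 members kept its direction in every alternative run and its adjusted p stayed over 0.05 in all but 1. With no filter on low counts (27881 genes) it was 1.08 with an edgeR adjusted p of 0.000276. The log2 fold change was that of the main fit, but the SE was 0.23 instead of 0.60. For *Mup17* the SE was 0.19 instead of 1.08, so this run hardly reflected the spread between mice. In it 6 members were called, along with 2.27% of all genes, and the cause was not tested. Members called were 1 with DESeq2 and length offsets, 2 at an unadjusted p, and 0 in every fit that left out 1 mouse. Leaving out each mouse gave 0.588 to 1.61 for the sum, lowest without WT replicate 1 and highest without WT replicate 3. Single members that turned direction when 1 mouse was left out were *Mup2* (−0.38 to 2.29, below 0 without WT replicate 1, WT replicate 3 or *Sirt7* KO replicate 2), *Mup17* (−1.30 to 1.25, above 0 without WT replicate 3) and *Mup20* (−0.12 to 1.06, below 0 without *Sirt7* KO replicate 1), and *Mup17* was at 0.22 with the replicate block. As TPM instead of reads, *Mup9* made up 2.22% of the sum in WT and 3.47% in *Sirt7* KO mice, and *Mup1* 5.86% in *Sirt7* KO mice. DESeq2 called 2 of the regulators, 13 male-biased, 3 female-biased, 3 lipocalin and 2 secreted protein genes, where edgeR called none. Its share over all genes was 2.16%. Without WT replicate 1, 5 female-biased genes were lower, and 5 lipocalins and 5 secreted protein genes higher, at an unadjusted p. In that fit 2.64% of all genes were lower and 4.24% higher.

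The labels give a replicate number, and whether mice with the same number shared a litter or a preparation is not stated. The deviations of such mice from the group means correlated at 0.0668, 0.0581 and −0.0548, against −0.0907 to 0.0519 for mice with different numbers. With the replicate block the summed log2 fold change was 1.44 (edgeR adjusted p = 0.462) with 0 members called. With 3 mice per genotype and 1 WT mouse far from the others, differences of the size seen missed the edgeR threshold after the filter on low counts, and levels of single near-identical copies depend on how Salmon divided shared reads.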
